A study of Homo sapiens with 2 samples.

Results

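The snoRNA host long non-coding genes are transcribed genes whose introns hold small nucleolar RNAs (snoRNAs). They were taken as every gene whose symbol is SNHG (small nucleolar RNA host gene) followed by a number, together with GAS5 and ZFAS1, and the snoRNA genes themselves were not counted. This gave 31 of the 41582 genes that the deposited transcripts matched. The study sequenced RNA of U87, a human glioblastoma line labelled as wild type and kept in RPMI with serum. Cells had been exposed for 72 h to the curcumin analog CCA-1.1 or, as the control, to its solvent DMSO. There was 1 library per condition, the concentration of CCA-1.1 in this experiment is not given in the sources used here, and the RNA came from whole cultures, so more RNA per cell and more cells with that RNA cannot be told apart. With 1 library per condition no difference has a replicate check, no p-value was calculated, and a difference between the 2 cultures and an effect of CCA-1.1 cannot be told apart.

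Values are TPM, which scale reads to transcript length and to a fixed library total, so the read depth of the libraries is unknown. The difference of a gene is log2((CCA-1.1 TPM + 1) / (DMSO TPM + 1)), which understates the change of genes at low TPM, and a difference above 1 or below -1 is 2-fold on this scale. Of the 8 glial and glioblastoma markers looked at, the mesenchymal genes VIM (3217 TPM with DMSO, 3106 TPM with CCA-1.1), FN1 (11241 TPM, 9088 TPM) and CD44 (607.4 TPM, 472.6 TPM) were abundant in both libraries. The neural progenitor genes NES (7.53 TPM, 7.62 TPM), OLIG2 (5.64 TPM, 7.03 TPM) and SOX2 (1.87 TPM, 1.45 TPM) were at low levels, the astrocyte gene GFAP was at 0.41 TPM and 0.57 TPM, and S100B was listed at 0 in both. The differences of the 6 markers with a mean of 1 TPM or more ran from -0.36 (CD44) to 0.27 (OLIG2).

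A snoRNA host gene is spliced like a messenger RNA, and its snoRNAs are trimmed out of the excised introns. Box C/D snoRNAs guide ribose methylation of ribosomal RNA, box H/ACA snoRNAs guide pseudouridylation, and scaRNAs guide the same modifications on spliceosomal RNAs. Many of the spliced host RNAs carry short open reading frames and are degraded by nonsense-mediated decay while ribosomes translate them, and several start with a terminal oligopyrimidine (TOP) tract, a feature of ribosomal protein mRNAs whose translation depends on mTORC1. GAS5 (growth arrest-specific 5) was named for its accumulation in growth-arrested cells.

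Most of the 31 genes were higher in CCA-1.1 treated U87 cells than in DMSO treated cells, by less than 2-fold. The difference was above 0 in 26 genes and below 0 in 4, and 1, SNHG27, was listed at 0 in both libraries. The median difference over the 31 genes was 0.28. Summed over the 31 genes, the level was 2593 TPM with DMSO and 3720 TPM with CCA-1.1, a ratio of 1.43. The highest 6 genes (SNHG29, ZFAS1, GAS5, SNHG5, SNHG6 and SNHG32) held 87.4% of this gain, and without SNHG29, the highest of them, the ratio was 1.45. Members made up 12.3% of the TPM of all long non-coding genes with DMSO and 14.9% in CCA-1.1, and 5 of the 10 most abundant long non-coding genes were members.

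A mean of at least 1 TPM over the 2 libraries was reached by 28 members and 15485 genes in all. Of these 28 members, 25 were higher in CCA-1.1 and 3 lower. Of all genes 56.1% were higher and 43.8% lower, and of the 2299 long non-coding genes at that level 66.3% were higher. The difference was above 0.5 in 6 of the 28 members, against 5.51% of all genes and 14.6% of long non-coding genes, and below -0.5 in none of them, against 3.6% and 4.13%. No member passed 2-fold, against 3.56% of all genes and 3.09% of long non-coding genes. The median difference was 0.37 for the 28 members, 0.03 for all genes and 0.12 for long non-coding genes. The members outside this level were SNHG26 (0.25 TPM with DMSO, listed at 0 in CCA-1.1), SNHG22 (0.03 TPM, 0.08 TPM) and SNHG27.

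**Figure D1:**
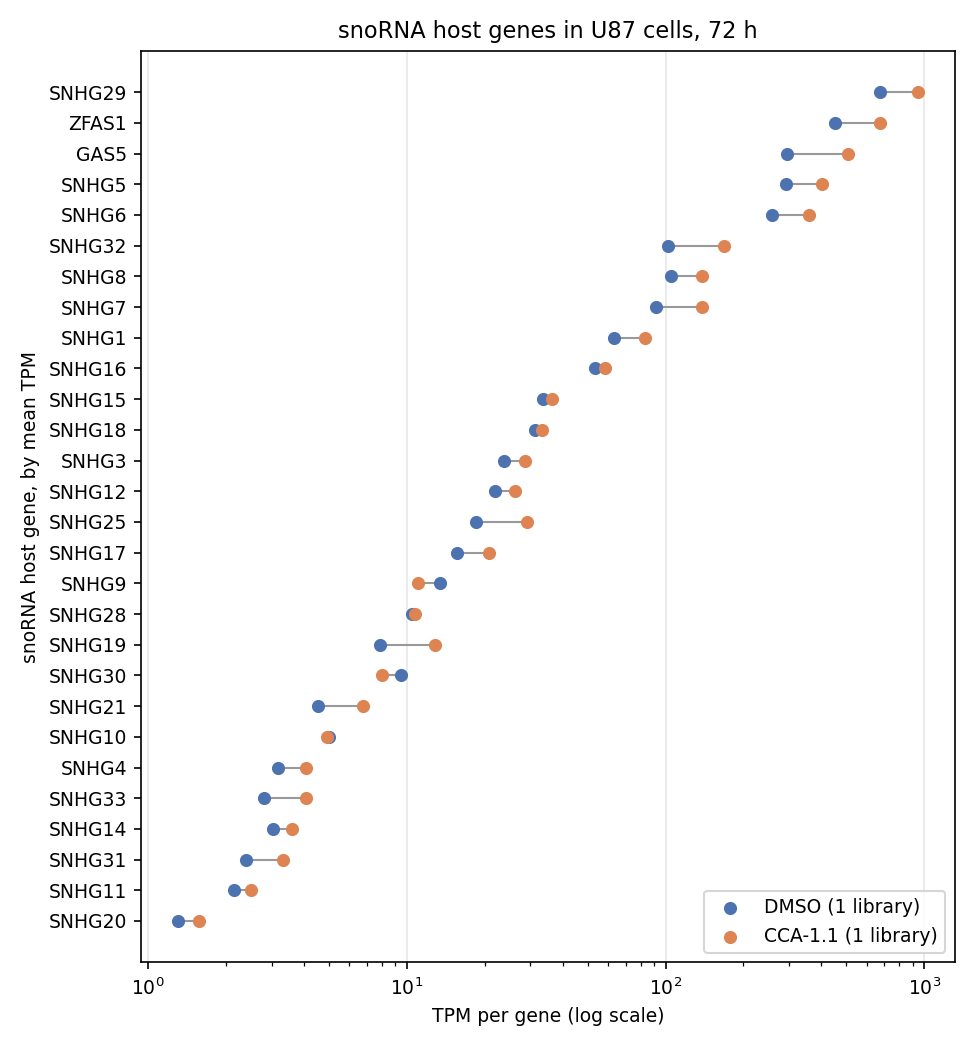
TPM of the 28 snoRNA host genes averaging at least 1 TPM (horizontal axis, log scale) in the DMSO library (blue) and the CCA-1.1 library (orange), 1 point per library and no error, with genes ordered by their mean. The orange point lies to the right of the blue point in 25 genes, and to the left in SNHG9, SNHG30 and SNHG10.

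SNHG29, formerly LRRC75A-AS1, holds SNORD49A, SNORD49B and SNORD65 and lies on chromosome 17 from 16438987 to 16470648 (GRCh38.p14, as are all positions here). It was the most abundant member, with 674.2 TPM with DMSO and 943.1 TPM with CCA-1.1, a difference of 0.48. ZFAS1, on chromosome 20 from 49278178 to 49289260, is the host of the SNORD12 family. It was at 450.6 TPM with DMSO and 675.7 TPM with CCA-1.1, a difference of 0.58. These 2 genes ranked 3 and 5 among all long non-coding genes by mean TPM. The ranks of members ran down to 1781 (SNHG20) among those with a mean of 1 TPM or more.

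GAS5, on chromosome 1 from 173863901 to 173869045, holds 11 annotated snoRNA genes. It was at 294.3 TPM with DMSO and 505.6 TPM with CCA-1.1, a ratio of 1.72 and a difference of 0.78, the largest of the 31 genes. SNHG32, formerly C6orf48, lies on chromosome 6 from 31834916 to 31839761 and holds SNORD48 and SNORD52. It had the next largest difference, 0.72, with 101.8 TPM with DMSO and 167.9 TPM with CCA-1.1. Among the 8589 genes averaging at least 10 TPM, the difference of GAS5 was at percentile 99.1 and that of SNHG32 at percentile 99.0.

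SNHG5, the host of SNORD50A and SNORD50B on chromosome 6, was at 291.2 TPM with DMSO and 403.4 TPM with CCA-1.1, a difference of 0.47. SNHG6, the host of SNORD87 on chromosome 8, was at 257.9 TPM and 359.5 TPM, a difference of 0.48. SNHG7, which holds SNORA17A and SNORA17B on chromosome 9, was at 91.7 TPM and 137.7 TPM, a difference of 0.58. These 3 differences were close to those of SNHG29 and ZFAS1. SNHG8, which holds SNORA24 on chromosome 4, was at 104.5 TPM and 137.9 TPM, a difference of 0.40. SNHG1, with 9 annotated snoRNA genes on chromosome 11, was at 63.3 TPM and 82.9 TPM, a difference of 0.38. Thus 9 of the 10 members averaging at least 50 TPM had a difference between 0.38 and 0.78, and the remaining gene, SNHG16, host of the SNORD1 family, was at 53.1 TPM and 58.5 TPM, a difference of 0.13.

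Members at lower levels were less uniform. SNHG25, a gene of 340 bases on chromosome 17 that holds SNORD104, was at 18.5 TPM with DMSO and 29.1 TPM with CCA-1.1, a difference of 0.62. SNHG19, the host of SNORD60, was at 7.90 TPM and 12.9 TPM, a difference of 0.64. SNHG17, which holds SNORA71A to SNORA71D, was at 15.6 TPM and 20.9 TPM, a difference of 0.40. The differences of these 3 genes were within the range of the abundant members.

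SNHG3, host of SNORA73A and SNORA73B, was at 23.7 TPM with DMSO and 28.7 TPM with CCA-1.1, and SNHG12, host of SNORA44 and other snoRNAs, was at 21.9 TPM and 26.1 TPM. SNHG15, host of SNORA9, was at 33.5 TPM and 36.4 TPM. SNHG18, host of SNORD123, was at 31.2 TPM and 33.3 TPM. The differences of these 4 genes ran from 0.09 to 0.26. SNHG28 was at 10.5 TPM and 10.8 TPM, a difference of 0.03. SNHG9, a gene of 509 bases that holds SNORA78, was at 13.4 TPM with DMSO and 11.1 TPM with CCA-1.1, a difference of -0.26, and it was the only one of the 19 members averaging 10 TPM or more that was lower in CCA-1.1. The other 18 were higher, against 51.9% of all genes and 63.9% of the other long non-coding genes at that level.

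Of the 9 members with a mean of 1 to 10 TPM, 7 were higher in CCA-1.1. At that level 61.3% of all genes and 66.4% of the other long non-coding genes were higher. None of the 9 had a difference above 0.5, against 9.5% and 14.8%. With 9 genes, these counts cannot be set apart from these shares. SNHG21 was at the top (4.52 TPM with DMSO, 6.80 TPM with CCA-1.1, a difference of 0.50). SNHG30 (9.46 TPM, 8.01 TPM) and SNHG10 (5.01 TPM, 4.92 TPM) were lower. SNHG14, the long transcript of the imprinted Prader-Willi region that holds the SNORD115 and SNORD116 clusters, was at 3.04 TPM and 3.60 TPM.

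The members were also set beside other genes of like level. At a mean of 50 TPM or more, the median difference was 0.48 for the 10 members, 0.18 for the 48 other long non-coding genes and -0.02 for all 3126 genes. At 10 to 50 TPM it was 0.24 for 9 members, 0.09 for 273 other long non-coding genes and 0.02 for all 5463 genes. At 1 to 10 TPM it was 0.19 for 9 members, 0.12 for 1950 other long non-coding genes and 0.07 for all 6896 genes. Above the 95th percentile of all genes averaging at least 10 TPM (0.36) were 12 of the 19 members at that level, against 5.01% of all genes and 20.2% of the 321 other long non-coding genes. Long non-coding genes as a class were also higher in the CCA-1.1 library, with a ratio of summed TPM of 1.15 once members were left out, against 1.43 for members.

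The class of snoRNA that a host carries was read from the snoRNA and scaRNA genes located within its span, for which the gene table gives no strand. At least 1 such gene lay inside 30 of the 31 members, and none inside SNHG27. In SNHG28 the only such gene had no named class. Whether these genes lie in introns of the members was not checked, so position alone does not show hosting. Among members averaging at least 1 TPM, the median difference was 0.47 for the 12 hosts of box C/D snoRNAs and 0.32 for the 10 hosts of box H/ACA snoRNAs. The ranges overlapped, from -0.22 to 0.72 and from -0.26 to 0.58. With DMSO the 12 hosts summed to 1962 TPM and the 10 hosts to 293 TPM, so class and level were not separated. GAS5 and SNHG12 hold both classes, with differences of 0.78 and 0.24. The 3 hosts of scaRNAs (SNHG10, SNHG20 and SNHG21) ranged from -0.02 to 0.50.

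The first bases are shown for members with large and small differences, since a TOP tract lies at the start of an RNA. Each stretch runs from 40 bases before to 20 bases from the start that the RefSeq promoter table of GRCh38.p14 gives, 5′ to 3′ on the strand of the gene. Capitals mark an unbroken run of C and T that begins with C at the first transcribed base, and the letters TATAA where they occur 20 to 40 bases before it. In ZFAS1 (chr20:49278602-49278661, plus strand), SNHG5 (chr6:85678714-85678773, minus strand), SNHG32 (chr6:31834876-31834935, plus strand) and SNHG19 (chr16:2155339-2155398, minus strand) the first 4 bases were CTTT. SNHG7 (chr9:136728165-136728224, minus strand) and SNHG12 (chr1:28581854-28581913, minus strand) have other pyrimidine starts behind a TATAA. SNHG18 (chr5:9546160-9546219, plus strand) has the longest run of C and T, which extends past the end of the stretch shown. SNHG29 (chr17:16438947-16439006, plus strand), GAS5 (chr1:173869026-173869085, minus strand) and SNHG16 (chr17:76557724-76557783, plus strand) do not start with C at the listed position.
ZFAS1: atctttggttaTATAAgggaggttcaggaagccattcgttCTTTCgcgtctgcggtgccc
SNHG5: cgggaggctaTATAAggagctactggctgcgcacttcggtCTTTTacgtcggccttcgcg
SNHG32: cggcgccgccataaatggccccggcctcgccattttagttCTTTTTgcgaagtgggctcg
SNHG19: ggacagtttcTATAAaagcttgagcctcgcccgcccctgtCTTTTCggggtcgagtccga
SNHG7: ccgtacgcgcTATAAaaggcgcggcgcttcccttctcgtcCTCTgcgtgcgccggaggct
SNHG12: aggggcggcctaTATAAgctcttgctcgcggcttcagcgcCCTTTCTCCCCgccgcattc
SNHG18: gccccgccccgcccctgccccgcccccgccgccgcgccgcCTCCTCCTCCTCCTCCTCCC
SNHG29: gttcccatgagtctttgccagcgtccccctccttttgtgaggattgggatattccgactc
GAS5: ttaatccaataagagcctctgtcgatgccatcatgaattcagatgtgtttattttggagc
SNHG16: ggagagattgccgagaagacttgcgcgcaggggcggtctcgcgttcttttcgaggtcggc

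A single start was listed for 26 of the 31 members. A start of CTTT on the strand of the gene was found in 4 of these 26 (15.4%), against 0.914% of all 35116 starts in the table. A run of at least 5 C or T letters beginning with C, which includes the CTTT starts followed by another pyrimidine, was found in 7 of 26 (26.9%) against 4.07% of all starts. The letters TATAA, searched on the strand of the gene 20 to 40 bases before the start, were found in 6 of 26 (23.1%) against 3.77% of all starts. The differences of the 4 CTTT members ran from 0.47 to 0.72 with a median of 0.61, and those of the other 11 members with a listed start averaging 10 TPM or more ran from 0.03 to 0.78 with a median of 0.38, so the groups overlapped. With the run of 5 or more, the 6 members averaging 10 TPM or more ranged from 0.09 (SNHG18) to 0.72 with a median of 0.53, against a median of 0.40 for the 9 without it. With TATAA, 6 members had a median of 0.53, against 0.38 for the 9 without it. These groups overlapped as well. Among all 4828 genes with a single listed start averaging 10 TPM or more, the median difference was 0.21 for the 70 with CTTT (1.45%) and 0.01 for the others. The 70 include the 4 CTTT members and 3 ribosomal protein genes that host snoRNAs, so this comparison is not independent of the members. For the run of 5 or more, it was 0.11 for the 319 genes with it (6.61%) and 0.008 for the others. For TATAA, it was -0.01 for the 166 genes with it (3.44%) and 0.01 for the others. Of the 15 members at that level, 26.7% had CTTT, 40% the run and 40% TATAA. A match describes the letters at a listed start, which can differ from the start used in U87 cells, and these letters were searched for after the sequences had been seen. The higher shares of members with these letters can follow from that choice alone, so they are not a test.

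The table lists 145 transcripts of the members, all with curated identifiers, of which 105 averaged 1 TPM or more. Of these, 81 were higher and 24 lower in CCA-1.1, with a median difference of 0.35, against 53.7% higher and 46.0% lower among all 33433 transcripts at that level. Reads that fit several transcripts were apportioned by Kallisto, the quantification program, so values of transcripts within a gene are not independent. In ZFAS1, GAS5, SNHG29, SNHG32, SNHG6 and SNHG7 the leading transcript was higher together with its gene. In ZFAS1 all 5 transcripts were higher, led by NR_036659.2 (231.1 TPM with DMSO, 359.1 TPM with CCA-1.1), which held 51.3% of the gene with DMSO and 53.1% in CCA-1.1. In GAS5 the leading transcript NR_002578.3 was at 148.5 TPM and 274.6 TPM and held 50.5% and 54.3% of the gene. In SNHG29 the leading transcript NR_027166.1 was at 334.9 TPM and 476.6 TPM, with 49.7% and 50.5% of the gene. In SNHG32 the transcript NR_160953.1 was at 67.4 TPM and 107.5 TPM, with 66.2% and 64.0%. The composition of these 4 genes thus differed by less than 4 percentage points for the leading transcript. In SNHG6 most of the gene was NR_002599.2, at 232.1 TPM and 320.1 TPM. SNHG7 had NR_024543.1 (49.9 TPM, 79.8 TPM) and NR_024542.1 (40.8 TPM, 56.4 TPM), both higher.

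Single transcripts diverged in other members, and below the leading transcript also in SNHG29 and GAS5. Of the transcripts averaging 1 TPM or more, 20 of SNHG29 were higher and 4 lower, and 11 of GAS5 were higher and 2 lower. Among the lower ones were NR_027158.1 of SNHG29 (48.9 TPM with DMSO, 45.8 TPM with CCA-1.1) and NR_152533.1 of GAS5 (15.1 TPM, 13.1 TPM). In SNHG8, NR_034010.1 was at 28.7 TPM with DMSO and 49.6 TPM with CCA-1.1, while NR_034011.1 was at 36.0 TPM and 33.4 TPM. In SNHG16, NR_038109.1 was at 28.4 TPM and 36.0 TPM, while NR_038111.1 was at 21.1 TPM and 18.9 TPM. In SNHG15, the leading transcript NR_003697.2 was at 23.5 TPM and 30.5 TPM, and its share of the gene was 70.0% with DMSO and 83.9% in CCA-1.1. In SNHG17, NR_152755.1 was level (8.17 TPM, 8.18 TPM) and NR_152758.1 was at 4.37 TPM and 8.71 TPM. In SNHG12, the leading transcript NR_024127.2 was at 8.50 TPM and 13.8 TPM, with 38.7% and 52.9% of the gene, while NR_146387.1 was at 2.79 TPM and 1.16 TPM. In SNHG8, SNHG16, SNHG15, SNHG17 and SNHG12 the value of the whole gene is a sum over transcripts with unlike differences.

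Past 2-fold were 14 of the 105 transcripts (13.3%), 10 of them higher and 4 lower, against 6.97% of all transcripts at that level, 3.61% higher and 3.35% lower. They belong to 6 genes. GAS5 had 4 of them, all higher. NR_152524.1 was the most abundant (6.21 TPM with DMSO, 17.7 TPM with CCA-1.1), followed by NR_152526.1 (1.02 TPM, 3.93 TPM), NR_152528.1 (0.31 TPM, 3.20 TPM) and NR_152530.1 (listed at 0, 2.38 TPM). SNHG29 had 5, in both directions. NR_027179.1 was at 11.4 TPM and 2.85 TPM and NR_027169.1 at 3.48 TPM and listed at 0, whereas NR_045023.1 was at 3.29 TPM and 8.30 TPM, NR_045029.1 at 1.22 TPM and 3.78 TPM, and NR_027177.1 listed at 0 and at 2.35 TPM. SNHG32 had NR_160950.1 (3.89 TPM, 12.3 TPM). SNHG16 had 2, of which NR_038110.1 was at 2.57 TPM with DMSO and listed at 0 in CCA-1.1, and NR_038108.1 at 1.1 TPM and 3.57 TPM. The others were NR_152578.1 of SNHG1 (listed at 0, 2.28 TPM) and NR_152597.1 of SNHG15 (3.05 TPM, 0.86 TPM). The highest mean among the 14 was 11.97 TPM, so with a minimum mean of 10 TPM only NR_152524.1 was left, 1 of 39 member transcripts (2.56%). The share of all transcripts was taken at a minimum mean of 1 TPM only, so the 13.3% and 6.97% were not matched for level.

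Other genes that carry snoRNAs in their introns were compared as chosen lists, which do not cover every such gene. The 15 ribosomal protein genes on the first list were each higher in CCA-1.1, with a median difference of 0.31. Of all genes averaging at least 50 TPM, 44.5% were higher. They ranged from 0.14 (RPL3, 1078 TPM with DMSO and 1189 TPM with CCA-1.1) to 0.51 (RPS13, 1474 TPM and 2106 TPM). Ribosomal protein hosts outside the list were not looked at here. The sum of the 15 listed ribosomal protein genes was 19150 TPM with DMSO and 23946 TPM with CCA-1.1. Of 21 other protein-coding hosts, 15 were higher and 6 lower, with a median of 0.17. Of all genes averaging at least 10 TPM, 51.9% were higher. The translation factor EIF4A2 (225.1 TPM, 312.7 TPM), TAF1D, a subunit of an RNA polymerase I factor (87.4 TPM, 120.2 TPM), and NOP56 (23.7 TPM, 34.4 TPM) had differences of 0.47, 0.46 and 0.52. The importin TNPO2 had the lowest, -0.16 (62.3 TPM, 55.6 TPM). Among non-coding hosts with other names, EPB41L4A-AS1, host of SNORA13, was at 48.3 TPM and 77.0 TPM, a difference of 0.66. DANCR, host of SNORA26, was at 50.8 TPM and 46.7 TPM, a difference of -0.12, and MEG8 was at or below 0.01 TPM in both libraries.

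Proteins that snoRNAs assemble with had lower median differences than the 28 members. NOP56, NOP58 and DKC1 host snoRNAs themselves and are also counted among the other protein-coding hosts. Of the box C/D core proteins, the methyltransferase FBL was at 120.2 TPM with DMSO and 130.1 TPM with CCA-1.1, SNU13 at 185.1 TPM and 177.0 TPM, NOP58 at 44.7 TPM and 54.5 TPM, and NOP56 as given above. The median of these 4 was 0.20. Of the box H/ACA core proteins, the pseudouridine synthase DKC1 was at 68.5 TPM and 70.0 TPM, with a difference of 0.03, and GAR1 at 19.6 TPM and 25.4 TPM, with a difference of 0.35. The median of these 4 was 0.08. The 10 assembly factors had a median of 0.04, from RUVBL2 at -0.14 to RPAP3 at 0.22, with 5 higher and 5 lower.

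Genes that act on spliced host RNAs were also near level. The 10 nonsense-mediated decay factors had a median difference of 0.03, from the helicase UPF1 at -0.15 (34.4 TPM with DMSO, 30.9 TPM with CCA-1.1) to SMG8 at 0.26 (5.94 TPM, 7.31 TPM). The 5 genes of the exon junction complex had a median of 0.08, from EIF4A3 at -0.04 to MAGOHB at 0.34. The 7 regulators of mTORC1 and TOP mRNAs had a median of -0.09, from LARP1, which binds TOP mRNAs, at -0.17 (79.9 TPM, 71.1 TPM) to EIF4EBP1 at 0.13 (217.2 TPM, 238.0 TPM). None of the genes in these 3 lists had a difference above 0.5 or below -0.5. Of all genes averaging 1 TPM or more, 5.51% were above 0.5 and 3.6% below -0.5. In lists of 5 to 10 genes, none is close to these shares.

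Some host genes share their start region with a gene on the opposite strand. Only the 26 members with a single listed start were searched. With a distance of less than 1000 bases between listed starts, 7 of them had a protein-coding neighbour averaging 1 TPM or more. The median difference of the 7 neighbours was 0.11, with a range from -0.25 to 0.22. Beside GAS5 (0.78), ZBTB37 was at 2 TPM with DMSO and 2.50 TPM with CCA-1.1, a difference of 0.22. Beside SNHG1 (0.38), the amino acid transporter subunit SLC3A2 was at 161.1 TPM and 187.4 TPM, a difference of 0.22. Beside SNHG19 (0.64), TRAF7 was at 74.4 TPM and 75.6 TPM, a difference of 0.02. SEMA5A (-0.25) beside SNHG18 (0.09) and GLRX5 (-0.22) beside SNHG10 (-0.02) were lower in CCA-1.1, and their differences were larger in size than those of the members. ACAA2 (0.11) beside SNHG22 (0.07), a member below 0.1 TPM, was the only protein-coding neighbour with a higher signed difference than its member. The long non-coding LOC107985216 (0.23) beside SNHG28 (0.03) was higher than its member too.

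The span of 14 members overlaps that of another gene, 8 of them among the 19 with a mean of at least 10 TPM. Reads of overlapping genes cannot be told apart with certainty where exons are shared, and whether the quantification used strand is not given in the sources used here. SNHG3 overlaps RCC1 (75.5 TPM with DMSO, 97.9 TPM with CCA-1.1, a difference of 0.37), and SNHG12 overlaps TRNAU1AP (23.1 TPM, 22.2 TPM). The genes that overlap SNHG29, GAS5, SNHG6 and SNHG7 were at 2.50 TPM or less in both libraries, against at least 91.7 TPM for these members.

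Host RNAs are short, with a median canonical transcript length of 1316 bases for the 19 members averaging at least 10 TPM against 2998 bases for all genes at that level with a length. Across 5 bins of length, the median difference of all genes ran from 0.0017 to 0.0464, and it was 0.0464 in the bin below 500 bases, where the 5 members had a median of 0.48. The part of transcript length in the differences of members was not tested.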

How the data were processed

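U87 cells were treated with DMSO or CCA-1.1 for 72 h, with 1 library per condition. Per the labels and the methods of the study, mRNA was enriched and sequenced on an Illumina instrument, reads were checked with FastQC 0.11.9 and MultiQC 1.1, and the quantification used Kallisto with the GRCh38.p14 transcriptome. The deposited unit is TPM, which the authors gave to 2 decimals for each transcript and library, without read counts or depth. Of 177816 transcripts, 169966 were matched to symbols of a RefSeq gene table of GRCh38.p14 with versions ignored, and TPM was summed per gene.

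The members and lists were chosen with earlier results of these data known. Named were every member with a mean of at least 10 TPM, members with the largest differences, leading transcripts and transcripts past 2-fold with a mean of at least 1 TPM, and the extremes of each related list; transcripts that diverge within a gene, overlapping genes and the start letters were chosen after their values or sequences were seen. Differences were described at 2-fold and at 0.5 with no test. Transcript lengths came from GENCODE version 44 canonical transcripts by symbol, for 93.9% of genes averaging 10 TPM or more. Alternatives were the pseudocount, the minimum mean, median-ratio scaling, curated or leading transcripts only, and matching with versions. The calculation was tested on simulated data. Python 3.11.15, numpy 2.4.6, pandas 2.3.3 and matplotlib 3.10.9 were used.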

Additional observations from a re-analysis of the deposited data

How the results depend on the processing

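No member passed 2-fold at gene level under any of the alternatives tried, and the number of members higher in CCA-1.1 was 25 of 28 as reported, 26 of 31 with no minimum, 18 of 19 with a minimum mean of 10 TPM and 22 of 25 when identifiers were matched with their versions, where GAS5, SNHG17 and SNHG4 gave no value. The median difference of members ran from 0.28 with no minimum to 0.40 with a minimum mean of 10 TPM. The number of member transcripts past 2-fold was 19 with a pseudocount of 0.1 or 0.01 TPM, 10 with versions, and 1 with a minimum mean of 10 TPM, where fewer transcripts were counted (39 in place of 105). With the leading transcript of each gene alone, SNHG17 was at 0.0016, SNHG16 at 0.33, SNHG15 at 0.36, SNHG12 at 0.64, SNHG28 at 0.15 and GAS5 at 0.88. No direction was reversed among the 19 members averaging 10 TPM or more. No paired analysis was possible because neither condition had a second library, and for the same reason no library could be left out. The missing read depth limits every value near 0.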

Other observations

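The snoRNA genes inside the host genes are listed in the same table, although mature snoRNAs carry no poly(A) tail and the library was enriched for mRNA; whether these values stem from mature snoRNAs or from intron-containing precursors was not tested. Outside SNHG14, 68 such snoRNA and scaRNA genes were listed, of which 17 were at 0 in both libraries, 15 at 0 in a single library and 36 above 0 in both. Of these 36, 17 were higher and 19 lower in CCA-1.1. These 36 summed to 950.5 TPM with DMSO and 947.1 TPM with CCA-1.1, and all 68 to 1002 TPM and 976.1 TPM. The sum of the host genes was higher in CCA-1.1. TPM scales reads to length, so few reads on a short snoRNA can give such values, and read counts were not given. For example, SNORD7 (12.6 TPM) and SNORD49A (11.6 TPM) were listed at 0 in CCA-1.1, and SNORD74 (7.19 TPM) at 0 with DMSO. These sums therefore do not show whether the snoRNAs were level. Within GAS5, the 11 snoRNA genes summed to 384.9 TPM with DMSO and 333.3 TPM with CCA-1.1, with 4 higher and 6 lower, SNORD47 (194.0 TPM, 165.0 TPM) being the highest. Within SNHG1, the 9 snoRNA genes summed to 222.5 TPM and 267.4 TPM, with 4 higher and 4 lower. The largest differences in TPM outside SNHG14, in either direction, were those of SNORD87 in SNHG6 (27.0 TPM, 93.6 TPM), SNORD31 in SNHG1 (30.7 TPM, 63.8 TPM), SNORD80 in GAS5 (77.3 TPM, 32.7 TPM) and SNORD104 in SNHG25 (86.8 TPM, 46.2 TPM), named after their values were seen.

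Of the 84 snoRNA genes inside SNHG14, 67 were at 0 in both libraries. Their sum was 112.7 TPM with DMSO and 113.1 TPM with CCA-1.1. SNURF and SNRPN, whose spans overlap that of SNHG14, were at 82.5 TPM and 75.8 TPM and at 58.8 TPM and 49.2 TPM.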
